A study of Mus musculus with 25 samples.

Results

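The data described here are a gene ontology table for subcutaneous fat from mice labelled Fzr1-OE and Control. The table was taken whole: its members were the 1605 gene ontology terms that the authors listed for Fzr1-OE against Control, of 2237 terms in both deposited term tables, and the 449 distinct genes that those terms named. The fat RNA samples were 3 Fzr1-OE and 3 Control samples of subcutaneous fat from 4-month-old mice of the BDF1 strain. The labels gave the genotype as Fzr1-OE or Control with no further allele, promoter or vector, and they did not say whether the replicates were separate animals. The same study profiled DNA methylation by reduced representation bisulfite sequencing (RRBS) in fat of the same age, with 1 library per group made from 3 mice each. It also profiled BDF1 blastocysts at embryonic day 4, with 3 Fzr1-OE and 2 Control RNA libraries, among 25 samples in all. For each term the fat table gave the number of genes annotated, the number of those selected by the authors, the number expected from the overall selected share, a Fisher p-value, a false discovery rate (FDR) and the symbols of the selected genes. It gave no level in any sample and no direction, so a named gene is here a gene that the authors selected, and neither higher nor lower. How the authors selected genes is not given in the sources used here.

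Fzr1, also called Cdh1, is an activator of the anaphase-promoting complex, the ubiquitin ligase that marks cyclins and other mitotic proteins for degradation. Subcutaneous white fat stores triglyceride in adipocytes, can form beige adipocytes that burn fuel for heat through the uncoupling protein Ucp1, and holds macrophages, mast cells, lymphocytes, vessels and progenitor cells. Fat also keeps daily time through the circadian clock, in which Arntl (Bmal1) with Clock or Npas2 activates the Per and Cry repressors and the Dbp and Tef output factors. Fibrinogen, albumin and most apolipoproteins of the blood are textbook products of hepatocytes. In bulk tissue, a change in the number of cells of a type and a change in RNA per cell cannot be told apart.

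Plasma protein and clock genes recur in the results, and promoters of 5 of them are shown here. Each line holds the 250 bases before the transcription start from RefSeq on GRCm38.p6, and 333 of the 449 symbols had such an entry. Alb (albumin, chr5:90460620-90460869, plus strand), Fga (fibrinogen alpha chain, chr3:83025903-83026152, plus strand) and Fgb (fibrinogen beta chain, chr3:83049864-83050113, minus strand) encode plasma proteins. Ciart (a clock repressor, chr3:95882229-95882478, minus strand) and Per3 (a period gene, chr4:151044666-151044915, minus strand) belong to the clock. Capitals mark any of 3 motifs on either strand, chosen after the table was seen: GTTAAT, the half-site of the hepatocyte factor HNF1; CACGTG, the E-box bound by Arntl heterodimers; and TTATGTAA, the D-box bound by Dbp and Tef.
Alb: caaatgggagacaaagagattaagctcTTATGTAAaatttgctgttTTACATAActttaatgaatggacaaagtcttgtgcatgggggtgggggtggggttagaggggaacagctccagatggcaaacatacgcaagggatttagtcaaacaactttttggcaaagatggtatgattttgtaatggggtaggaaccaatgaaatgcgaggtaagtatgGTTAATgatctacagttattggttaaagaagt
Fga: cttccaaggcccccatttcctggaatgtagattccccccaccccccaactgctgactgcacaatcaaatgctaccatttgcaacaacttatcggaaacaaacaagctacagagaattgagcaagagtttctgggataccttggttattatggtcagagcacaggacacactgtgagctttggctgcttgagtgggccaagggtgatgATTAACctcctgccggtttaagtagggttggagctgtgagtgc
Fgb: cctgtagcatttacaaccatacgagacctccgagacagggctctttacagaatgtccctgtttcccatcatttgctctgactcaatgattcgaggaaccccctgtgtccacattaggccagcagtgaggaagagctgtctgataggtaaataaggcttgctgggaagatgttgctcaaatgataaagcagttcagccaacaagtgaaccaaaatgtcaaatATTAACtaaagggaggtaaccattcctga
Ciart: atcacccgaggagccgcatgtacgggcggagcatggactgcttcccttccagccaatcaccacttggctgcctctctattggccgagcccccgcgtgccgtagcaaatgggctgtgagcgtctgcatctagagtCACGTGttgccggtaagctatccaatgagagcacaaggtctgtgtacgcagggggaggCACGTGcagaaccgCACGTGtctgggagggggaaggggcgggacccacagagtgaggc
Per3: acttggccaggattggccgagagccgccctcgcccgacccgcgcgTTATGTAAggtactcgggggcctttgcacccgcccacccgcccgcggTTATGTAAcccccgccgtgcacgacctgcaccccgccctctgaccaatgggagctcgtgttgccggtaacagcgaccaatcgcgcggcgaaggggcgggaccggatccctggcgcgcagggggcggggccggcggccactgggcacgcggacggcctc
The HNF1 half-site lay in 6.43% of 32851 RefSeq promoters of this length. It lay in 9 of 30 promoters of the plasma protein genes named in the table (30.0%): those of Afm, Alb, Fga, Fgb, Gc, Mug1, Pzp, Serpina1c and Serpina1e. Of 25 promoters of named liver enzymes, carriers and regulators, 5 held it (20.0%), and of 360 promoters of table genes outside both liver lists, 5.28% held it. The E-box lay in 6.02% of all promoters and in 3 of 8 promoters of the named clock genes, those of Ciart and Tef. The D-box lay in 0.819% of all promoters, in 1 of the 8 clock promoters (12.5%), that of Per3, and in 1 of the 30 plasma protein promoters, that of Alb. It also lay in 3 of the 25 promoters of liver enzymes, carriers and regulators (12%), those of Acsm3, Ces1c and Ces1e. All 5 promoters shown hold a motif and do not represent their groups: those of Fgg, Apoh, Serpinc1, Dbp and Npas2 held none of the 3. A match is a description of letters and does not show that a factor was bound.

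The 1605 terms comprised 1335 biological processes, 207 molecular functions and 63 cellular components. In the authors' deposited table every listed term had a Fisher p under 0.05, from 2.4e-13 to 0.04967, so the table holds only the terms that reached that limit. The FDR was under 0.05 for 564 terms (35.1%): 494 processes, 42 functions and 28 components. The FDR values imply that 5059 processes, 967 functions and 474 components were tested, of which 9.76%, 4.34% and 5.91% had an FDR under 0.05. No term had fewer selected genes than expected. The median ratio of selected to expected genes was 4.84 over all terms and 3.31 over the 564. The ratio is highest in the smallest terms: 298 terms rested on 1 gene, and 0 of those had an FDR under 0.05. Just inside the limit, the authors' deposited table listed cellular response to oxygen-containing compound with 34 selected genes against 21.26 expected (FDR 0.0497). Just outside, the authors' deposited table listed regulation of primary metabolic process with 166 against 140.42 (FDR 0.0508).

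Terms shared genes heavily. The 1605 terms held 1059 distinct gene sets, and the median gene appeared in 28 terms. Tnf, the macrophage and adipocyte cytokine, was named in 493 terms. Il1b, the inflammasome-processed cytokine, was named in 429, and at least 1 of this pair was in 567 terms (35.3%) and in 334 of the 564 terms with an FDR under 0.05 (59.2%). Tlr2, a receptor for bacterial lipoproteins, was named in 346 terms, and Apoa1, the main protein of high-density lipoprotein, in 344. Thbs1 (thrombospondin 1) was in 319 terms, Ptgs2 (cyclooxygenase 2, which makes prostaglandins) in 307 and Tlr9, the receptor for unmethylated DNA, in 280. Nr1h4, the bile acid receptor FXR, was in 257. Apoa2 and the leukocyte phosphatase Ptprc (CD45) were in 233 each. The 10 most named genes covered 62.9% of all terms and 85.1% of those with an FDR under 0.05. A count of terms therefore follows how many annotations a gene carries and is no count of independent findings.

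**Figure D1:**
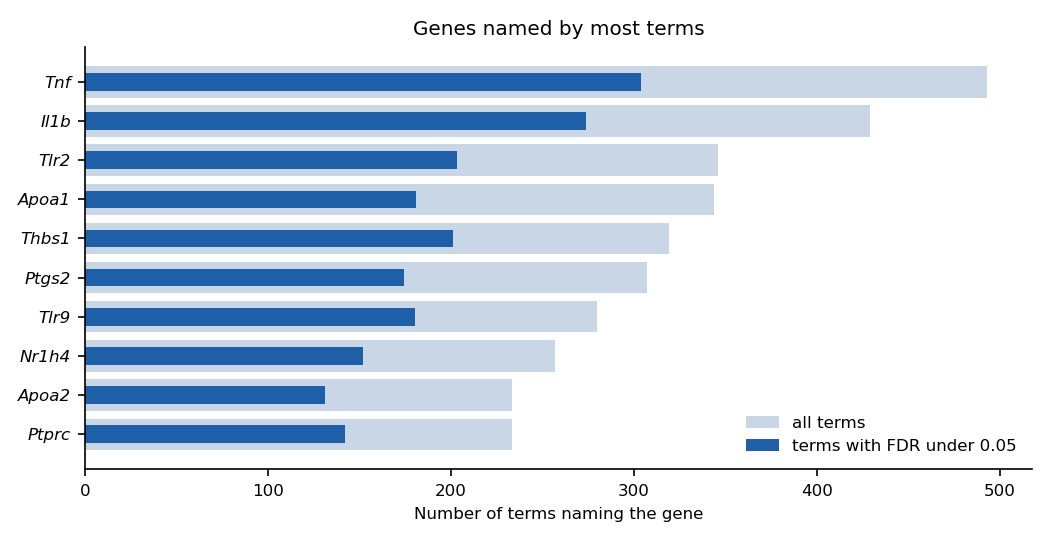
The 10 genes named by most terms of the fat table. Pale bars give the number of terms that named each gene and dark bars the number of those with an FDR under 0.05; Tnf (493 terms) and Il1b (429) lead, followed by Tlr2 (346) and Apoa1 (344).

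The term of smallest p was blood microparticle, the set of proteins found in vesicles shed into blood. For it the authors' deposited table named 29 of 222 annotated genes against 5.49 expected (FDR 1.14e-10). They included the fibrinogen chains Fga, Fgb and Fgg, the carriers Alb, Afm and Gc, the apolipoproteins Apoa1 and Apoa2, prothrombin (F2), plasminogen (Plg), antithrombin (Serpinc1), kininogen (Kng1), Hrg, Ahsg, Ambp, Cpn2, Serpina3k, C3, Hspa1a, the smooth muscle actin Actg2 and 8 immunoglobulin genes. For fibrinolysis, the dissolution of clots, the authors' deposited table named 9 of 20 genes against 0.49 expected (FDR 3.04e-07), among them Apoh, F2, Fga, Fgb, Fgg, Hrg, Plg and Thbs1. For fibrin clot formation, the authors' deposited table named 5 of 8 genes (Apoh, Fga, Fgb, Fgg and Serpinc1). A fibrinogen gene was named in 230 terms, and all 3 chains together in 207. The chains assemble into 1 protein, and terms such as positive regulation of heterotypic cell-cell adhesion rest on all of them: there the authors' deposited table named 7 of 11 genes, of which Fga, Fgb and Fgg were 3.

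Lipoprotein terms rested on the same kind of gene. For chylomicron, the authors' deposited table named 5 of 12 genes against 0.30 expected (FDR 3.27e-04): Apoa1, Apoa2, Apob, Apoc3 and Apoh. For binding to the high-density lipoprotein receptor, the authors' deposited table named all 3 annotated genes, Apoa1, Apoa2 and Apoc3 (FDR 0.00132). All 38 terms with lipoprotein or chylomicron in their name drew on 12 genes, of which 8 were in the liver lists. Among peptidase inhibitors, the authors' deposited table named 20 of 213 genes against 5.23 expected (FDR 7.74e-05). These included the serpins Serpina10, Serpina1c, Serpina1e, Serpina3k and Serpinc1, the alpha-macroglobulin family members Mug1 and Pzp, and Fetub. The progenitor protein Pi16 and the inflammasome proteins Naip2 and Nlrc4 were also among the 20. Some of these are members of mouse multigene families (Serpina1, Serpina3 and Mug) whose copies are nearly identical, so which copy was selected is uncertain. The same holds for the Mup genes, which were named in other terms.

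Because hepatocyte genes recurred, 2 lists of liver genes were drawn up after the table was seen. Of 96 plasma proteins made in liver, 38 were named in the table (39.6%), and of 63 liver enzymes, carriers and regulators, 30 were named (47.6%). The overall selected share implied by the authors' expected values was 2.47%. The enzymes included the cytochromes Cyp2c50, Cyp2d26, Cyp2e1, Cyp2j5, Cyp3a11 and Cyp4a14, which oxidize drugs, fatty acids and steroids. They also included the carboxylesterases Ces1c, Ces1e, Ces2b and Ces3a, the methionine and betaine cycle enzymes Bhmt, Gnmt and Mat1a, and urate oxidase (Uox). The bile acid genes Nr1h4 and Abcb11 (the bile salt export pump) and the organic anion carriers Slco1a1 and Slco1b2 were named as well. Together the lists gave 68 of 159 genes, or 15.1% of the 449 symbols, and at least 1 of the 68 was in 997 terms (62.1%) and in 471 of the 564 terms with an FDR under 0.05 (83.5%). Some of the 68 are also expressed in fat, including C3, Angptl8 and the macrophage enzyme Arg1. The table gives no level by sample, so whether 1 library or several carried these genes was not tested, and nor was their part in the other terms.

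With the 68 liver-list genes left out of the counts, 526 of the 564 terms still held more genes than the authors expected and 38 did not, 19 of these with no gene left. The authors' expected values still counted those genes, and no p was recomputed. The median ratio over the 564 went from 3.31 to 2.03. For blood microparticle 10 of 29 genes were left, for fibrinolysis 2 of 9 (Thbs1 among them), and for chylomicron and fibrin clot formation 0. For immune response 65 of 80 genes were left, against 35.01 expected in the authors' deposited table. For response to wounding 43 of 61 were left, against 24.31 in the authors' deposited table, and for extracellular matrix 27 of 34, against 13.52.

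**Figure D2:**
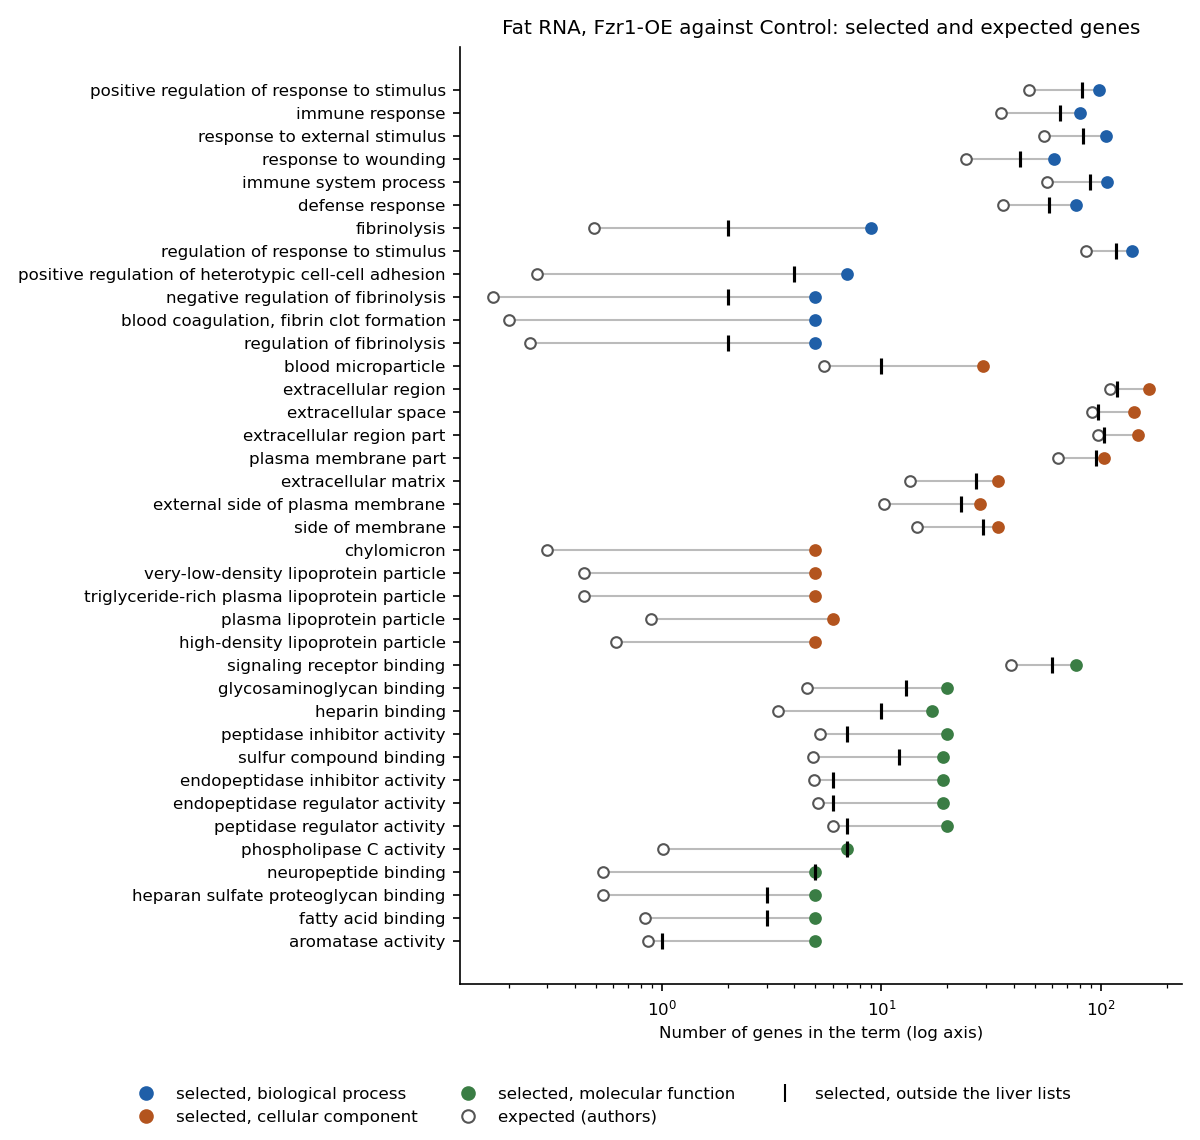
Terms chosen by rule in each category, on a log axis of gene number: open circles are the authors' expected number, filled circles the number selected, and black bars the number selected outside both liver lists (no bar where it is 0). Blood microparticle falls from 29 genes to 10 without the liver lists, and chylomicron from 5 to 0; immune response keeps 65 of 80.

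Inflammatory and innate immune terms named many genes outside the liver lists. For immune response, the authors' deposited table named 80 genes against 35.01 expected, for defense response 77 against 35.83, and for inflammatory response 42 against 14.79 (FDR 6.75e-07). Outside both liver lists were 65 of the 80 immune response genes and 58 of the 77 defense response genes. Receptors of innate sensing were among the genes named. For MyD88-dependent Toll-like receptor signalling, the authors' deposited table named 5 of 20 genes against 0.49 expected (FDR 0.00278): Tlr1, Tlr2, Tlr8, Tlr9 and Tlr13, which sense bacterial lipopeptides or nucleic acids. An added list of Toll-like receptors and inflammasome genes had 9 of 24 members named, the other 4 being Il1b, Mefv, Naip2 and Nlrc4. For positive regulation of interleukin-8 production, the authors' deposited table named 8 of 39 genes against 0.96 expected, among them Apoa2, Il1b, Tlr1, Tlr2, Tlr8, Tlr9 and Tnf. Of 46 cytokines and cytokine receptors, 5 were named (10.9%): Il1b, Tnf, Lif, the alarmin Il33 and its receptor Il1rl1. Cxcl13, which attracts B cells, and Cxcr2, a neutrophil receptor, were named of 55 chemokine genes and receptors (3.64%). Of 35 interferon response genes, Mx1 and Oas3 were named (5.71%). The overall selected share was 2.47%.

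Myeloid and lymphoid markers were named in part. At the overall selected share of 2.47%, fewer than 1 gene is expected in each of the lists that follow. Of 34 macrophage and monocyte genes, 4 were named: Adgre1 (F4/80), Itgam (CD11b), the fungal receptor Clec7a and Arg1. Of 26 granulocyte and mast cell genes, 4 were named: Cpa3, Cxcr2, Mmp8 and S100a9. The mast cell genes Kit, Fcer1a, Ms4a2, Cma1, Mcpt4, Tpsb2 and Hdc of that list were not named. An added list of mast cell genes, drawn up after the table was seen, had 13 of 25 members named. They were the granule proteases Cpa3, Ctsg, Mcpt2 and Prss34, the receptors Il1rl1, Milr1, Mrgprb1, Mrgprb2 and Mrgprx2, the enzymes Hpgds and Tph1, Rab44 and the serotonin transporter Slc6a4. Yet the 7 terms with mast cell in their name rested on 6 genes, and 0 had an FDR under 0.05: for mast cell degranulation, the authors' deposited table named Cd84, Fgr, Milr1 and Mrgprx2 (4 of 40 genes, FDR 0.112). Of 40 T and natural killer cell genes, Cd69 and Gzma were named, and of 30 B and plasma cell genes, Cd22 and Iglc1. Of 15 lymph node genes, 2 were named, Cxcl13 among them. The table named 13 immunoglobulin genes, 7 heavy chain (6 of them variable segments) and 6 light chain. Variable segments are close copies of each other, so their identity is uncertain. None of 28 antigen presentation genes was named, a count near the background.

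Complement and antibody terms were carried by those segments and by liver-list genes. For complement activation, the authors' deposited table named 13 of 159 genes against 3.93 expected (FDR 0.00402), among them C3, Cfi, Mbl1, Mbl2 and 8 immunoglobulin genes. Of 26 complement genes, 5 were named (19.2%), C3, Cfi, Mbl1 and Mbl2 among them, and all 5 were also in the plasma protein list. For B cell mediated immunity, the authors' deposited table named 15 of 221 against 5.46 (FDR 0.00777), with Pou2f2, Ptprc and Tnf beside complement and immunoglobulin genes. For acute-phase response, the authors' deposited table named Ahsg, F2, Il1b, Orm3, Ptgs2, Tnf and Ugt1a1 (7 of 45, against 1.11 expected). Some immunoglobulin, mast cell and liver genes were thus named in a table for fat, and their part in the broad immune and wound terms was not tested.

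The circadian clock had the largest share of named genes among the 37 lists of adipose functions and cell types. Of 19 clock genes, 6 were named (31.6%): the activators Arntl and Npas2, the repressors Per3 and Ciart, and the output factors Dbp and Tef. The overall selected share was 2.47%. The other core genes of the list, among them Clock, Per1, Per2, Cry1, Nr1d1 and Nr1d2, were not named. A gene can be named only through a listed term, so one that is not named may still have been selected. For circadian rhythm, the authors' deposited table named 13 of 205 genes against 5.07 expected (FDR 0.0242). They were Arntl, Ciart, Dbp, Npas2 and Per3, with the nuclear receptor Rorb, the transcription factor Creb1, the peptide receptors Npy2r and Prokr1, the neurotrophin receptor Ntrk3, the urinary protein Mup20, and Slc6a4 and Tph1 of the serotonin system. It was the only 1 of 7 rhythm terms with an FDR under 0.05. For regulation of circadian rhythm, the authors' deposited table named Arntl, Creb1, Npas2, Npy2r, Per3 and Rorb (6 of 92, FDR 0.133). The time of day at which fat was taken is not given in the labels.

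Among adipose functions, thermogenesis came next. Of 24 genes of brown and beige fat, 5 were named (20.8%): Ucp1, which uncouples respiration, Adrb3, the adrenergic receptor that starts thermogenesis, Dio2, which activates thyroid hormone, Elovl3, which elongates fatty acids, and the lipid droplet protein Cidea. Others of the list, among them Prdm16, Ppargc1a, Cox7a1, Cox8b, Cpt1b, Kcnk3 and Zic1, were not named. The overall selected share was 2.47%. For temperature homeostasis, the authors' deposited table named 7 of 48 genes against 1.19 expected (FDR 0.00402): Adrb3, Cidea, Il1b, Mup20, Ptgs2, Tnf and the cation channel Trpm2. For heat generation, the authors' deposited table named Adrb3, Il1b, Mup20, Ptgs2 and Tnf (5 of 28, FDR 0.00994). Tnf, Il1b and Ptgs2 are known mediators of fever. For adaptive thermogenesis, the authors' deposited table named only Adrb3 and Ucp1 (2 of 13, against 0.32 expected, FDR 0.173). Whether Ucp1 and its companions were higher or lower in Fzr1-OE fat is not given in the table.

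Lists of white adipocyte functions had 0 to 4 genes named, beside the overall selected share of 2.47%. Of 28 adipocyte identity and lipid droplet genes, Agpat2, which makes phosphatidic acid for triglyceride, and Cidea were named (7.14%). Pparg, Cebpa, Fabp4, Plin1, Adipoq and Lpl were not. Of 24 lipid synthesis genes, Elovl3 and Thrsp, a regulator of lipogenesis, were named (8.33%). Of 30 lipolysis and fatty acid oxidation genes only Adrb3 was named (3.33%), and of 20 sterol synthesis and 36 insulin and glucose genes, 0. Of 29 adipokines, 4 were named, among them Tnf, Angptl8, which inhibits lipoprotein lipase, and Retnlg, a resistin relative of myeloid cells. Of 33 progenitor and adipogenesis genes, 4 were named: the progenitor surface markers Dpp4 and Pi16, the anti-adipogenic ligand Wnt10b, and Bmp7, a brown fat inducer. For fat cell differentiation, the authors' deposited table named 11 of 220 genes against 5.44 expected (FDR 0.127), among them the fatty acid receptor Ffar4 and the Wnt antagonist Frzb. For lipid storage, the authors' deposited table named Apoa1, Apob, C3, Cidea, Il1b, Ldah, Mup20 and Tnf (8 of 72, FDR 0.00750). For lipid metabolic process, the authors' deposited table named 59 of 1192 genes against 29.47 expected (FDR 3.37e-05), and 39 of the 59 were outside both liver lists.

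The remaining lists had 0 to 3 genes named. Of 49 extracellular matrix genes, 3 were named (Col14a1, Has2 and Thbs1), and of 25 matrix proteases and inhibitors 2 were named, Mmp8 among them. In each of the lists of endothelium (Lyve1 of 36), pericytes (Kcnj8 of 16), nerve (Ntrk3 of 25), epithelium (Esr1 of 36), steroid and nuclear receptors (Esr1 of 24) and TGF-beta and BMP signalling (Bmp7 of 36), 1 gene was named. Wnt10b and Wnt2 were named of 40 Wnt genes, and the heat shock genes Hspa1a and Hspa1b of 22 stress genes. None was named of 42 skeletal muscle, 12 erythroid, 41 oxidative phosphorylation, 34 TCA cycle and glycolysis, 39 cell cycle or 27 imprinted genes. The anaphase-promoting complex and its substrates, the machinery that Fzr1 activates, had 0 of 22 genes named, and DNA methylation and H3K9 factors 0 of 24. At the overall share of 2.47% fewer than 1 gene is expected in each of these 2 lists, so the counts of 0 are near the background. Over the 37 lists, 56 of 1050 genes were named (5.33%), and 11 lists had none. With the 4 lists added after the table was seen counted too, 313 of the 449 symbols were in no list.

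**Figure D3:**
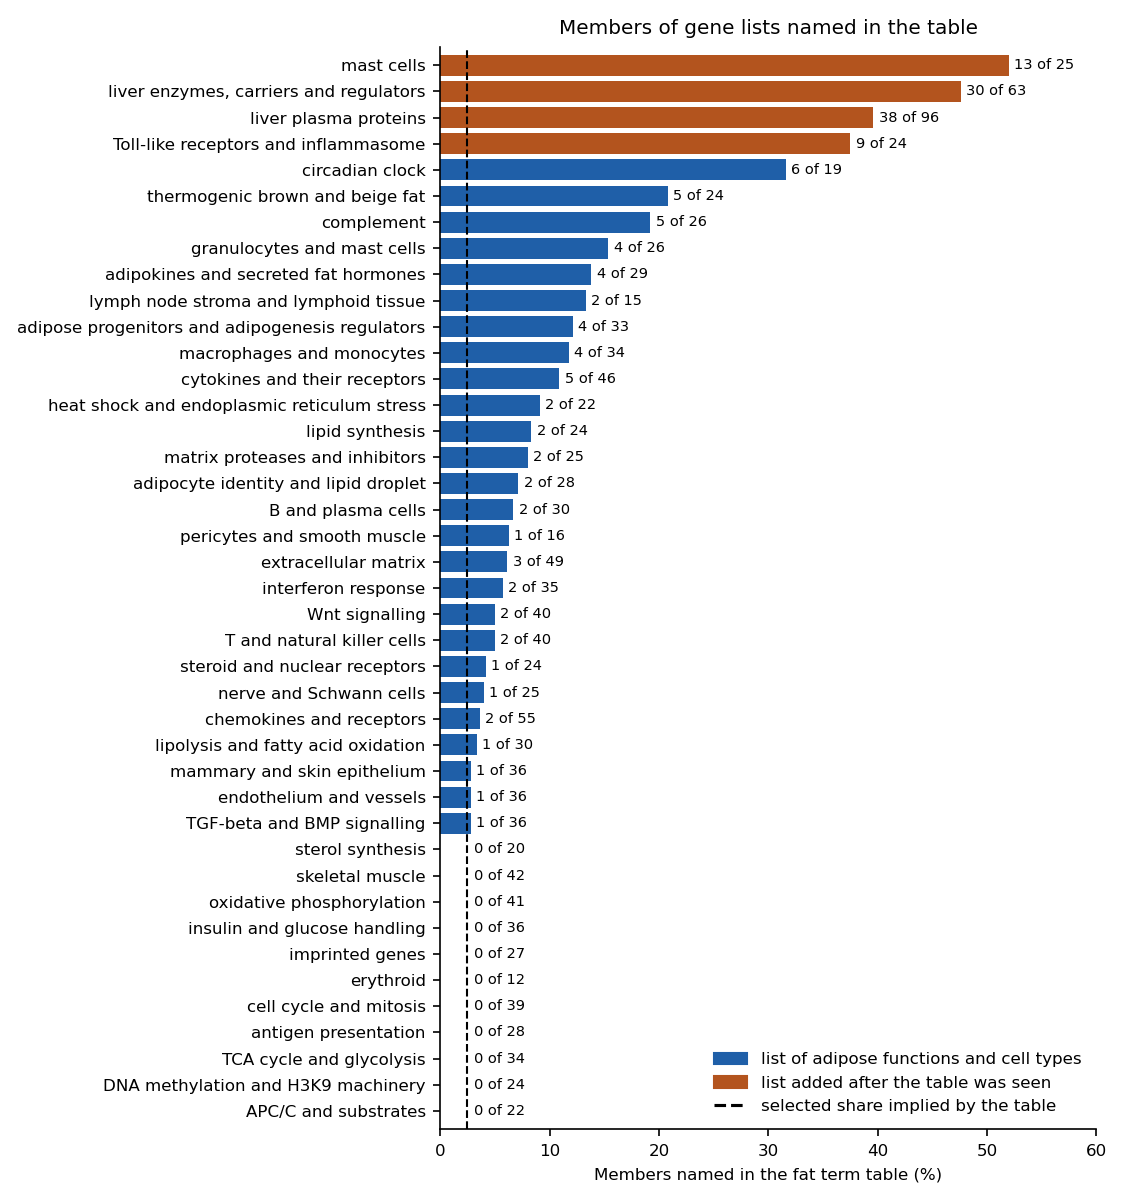
Share of each gene list named in the fat table, with the number named beside each bar; the dashed line is the overall selected share of 2.47%. Lists added after the table was seen are in orange, and among the rest the circadian clock (6 of 19) and thermogenic genes (5 of 24) have the longest bars.

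Other functions were named by smaller terms. For regulation of blood vessel diameter, the authors' deposited table named 12 of 105 genes against 2.6 expected (FDR 5.35e-04). Beside the fibrinogens, Kng1 and Cyp2j5 these were the adrenergic receptors Adra1b and Adrb3, the serotonin receptors Htr1b and Htr2b, Slc6a4, Ptgs2 and the potassium channel Kcnj8. For phospholipase C activity, the authors' deposited table named Adcyap1r1, Esr1, Htr2b, Plcb2, Plcl1, Sele and Txk (7 of 41, FDR 0.00295), none in the liver lists. For neuropeptide binding, the authors' deposited table named 5 of 22 genes (FDR 0.00619), of which Mrgprb1 and Mrgprx2 were also in the mast cell list. For monooxygenase activity, the authors' deposited table named 14 of 172 genes against 4.22 expected (FDR 0.00400), with Cyp1a1, Cyp46a1, Tph1 and 5 others outside the liver lists. For heparin binding, the authors' deposited table named 17 of 138 genes against 3.39 (FDR 1.58e-05), among them Thbs1, Bmp7, Cxcl13 and Itgam. For retinoic acid biosynthesis, the authors' deposited table named Akr1c18, Aldh1a3 and Cyp1a1 (3 of 11, FDR 0.0272). Histone, chromatin and methylation words occurred in 8 terms, cell cycle and mitosis in 6 and serotonin in 6, and in each of these groups 0 terms had an FDR under 0.05.

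**Figure D4:**
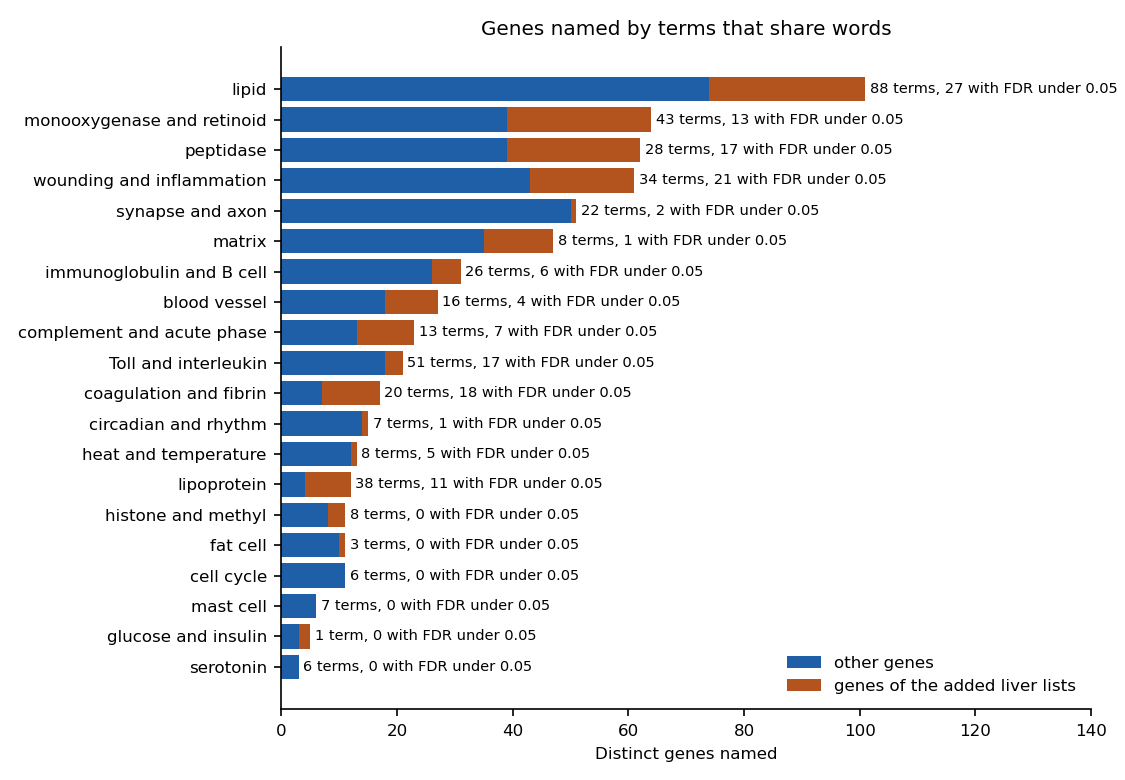
Distinct genes named by terms that share words, with liver-list genes in orange and the number of terms beside each bar. Lipid terms drew on 101 genes (27 of them liver-list) and coagulation and fibrin terms on 17 (10 liver-list), while the synapse and axon terms held 1 liver-list gene among 51.

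The fat DNA methylation table named 119 genes in 632 terms, and 3 genes were in both tables: the estrogen receptor Esr1, Plekhg6 and Scml4. They were 0.668% of the RNA table's genes and 2.52% of the methylation table's. Esr1 was named in 196 RNA terms and 154 methylation terms. Matched by term identifier, the tables shared 96 terms, which were 5.98% of the RNA terms and 15.2% of the methylation terms, and 11 had an FDR under 0.05 in both. Of the thermogenic list the methylation table named Prdm16, a brown fat regulator that the RNA table did not name. Methylation was measured in 1 library per group, so that table has no replicate check.

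The same genes were then looked up in blastocysts, where the deposited FPKM values (fragments scaled to transcript length and library size) give levels and a direction. Fzr1 was at 12.7, 15.5 and 17.1 FPKM in the libraries labelled Fzr1-OE and at 16.5 and 16.5 in Control (log2 difference -0.13, SE 0.16, limma adjusted p = 0.713), and the groups overlapped. Of the 449 symbols, 422 matched a locus by symbol and 3 by an older symbol, 171 were listed at 0 in all 5 libraries, and 74 passed the filter of a mean of 1 FPKM. Of these 74, 3 passed an adjusted p of 0.05 by limma (4.05%), all higher in Fzr1-OE, beside 4.21% of all 9439 loci. Groups did not overlap for 25 of the 74 (33.8%), beside 37.4% of all loci. The median log2 difference was -0.04 over the 74 and 0.01 over all loci.

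Bhmt, which remethylates homocysteine with betaine and lies at chr13:94386846-94407713 (mm9), was at 469, 498 and 507 FPKM in Fzr1-OE and 253 and 241 in Control. All 3 Fzr1-OE values were above both Control values, and the log2 difference was 0.99 ± 0.07 (SE; adjusted p = 1.93e-04 by limma). Cks2, a subunit that binds cyclin-dependent kinases (chr13:51740601-51746031), was at 659, 763 and 650 FPKM in Fzr1-OE and 468 and 492 in Control. The groups did not overlap, and the log2 difference was 0.52 ± 0.08 (SE; adjusted p = 0.00714 by limma). Kng1, kininogen (chr16:23058373-23082151), was at 9.06, 7.72 and 6.74 FPKM in Fzr1-OE and 3.23 and 3.54 in Control. All 3 Fzr1-OE values were again the higher, by 1.0 ± 0.21 (SE; adjusted p = 0.0295 by limma). These differences are on the scale of log2(FPKM + 1). Leaving out any 1 of the 5 libraries ended the call for Kng1, with limma adjusted p from 0.0562 to 0.147. Leaving out Control replicate 1 or 2 ended the call for Cks2, with limma adjusted p = 0.0639 and 0.0642. Apoa1 was at 42.1, 40.3 and 33.7 FPKM in Fzr1-OE and 53.6 and 49.5 in Control, and did not pass (log2 difference -0.41, limma adjusted p = 0.105). Bhmt and Kng1 were in the liver lists, of whose 68 named genes 7 were tested and 35 were listed at 0 in every blastocyst library.

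**Figure D5:**
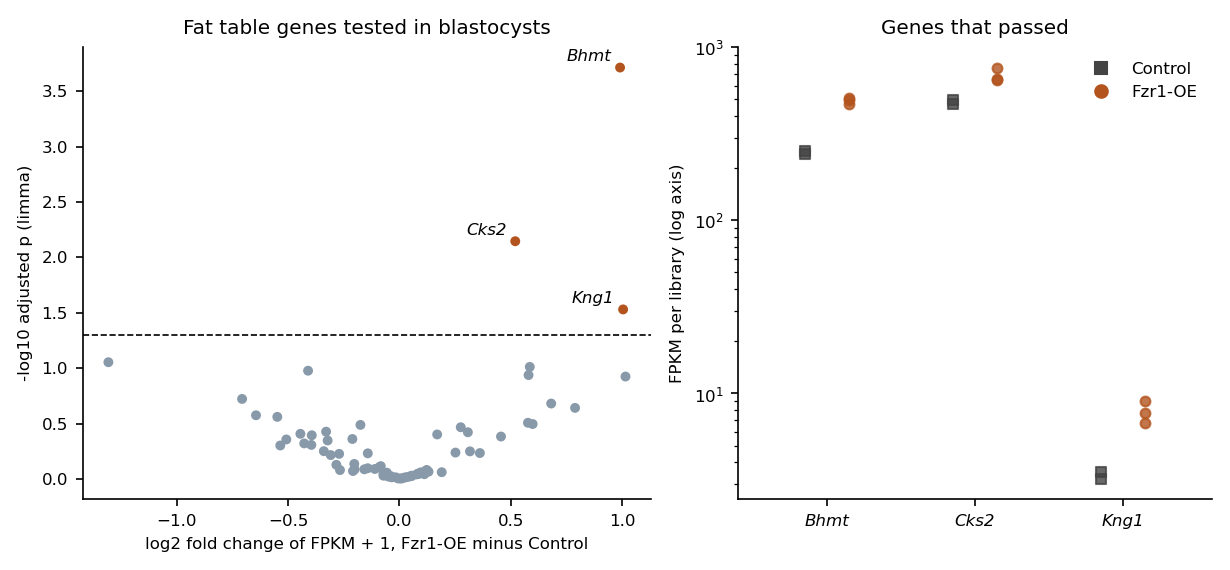
Left, the 74 fat table genes tested in blastocysts by log2 fold change of FPKM + 1 and -log10 of the limma adjusted p, with the dashed line at 0.05; right, FPKM on a log axis in each library for the 3 genes that passed. Bhmt, Cks2 and Kng1 sit above the line, and for each the 3 Fzr1-OE libraries (orange circles) are above both Control libraries (grey squares).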

How the data were processed

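RNA of subcutaneous fat was sequenced in 3 Fzr1-OE and 3 Control samples, and the values used are the authors' deposited table of gene ontology terms, with the authors' Fisher p-value, FDR and expected counts per term. Blastocyst values are the authors' deposited FPKM, and reads were processed with HISAT2 2.1.0 and Cufflinks 2.2.1, per the submitters' processing notes, which give the build mm9. The steps from fat reads to the selected genes, including direction, threshold and gene universe, were not stated in any label or header. Totals of 9324167 to 10483442 fragments per blastocyst library were estimated from the widths of the deposited FPKM confidence intervals. The depth of the fat libraries is unknown.

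Symbols were counted once over all terms. The selected share (2.47%) is expected over annotated genes, summed over terms with at least 500 annotated genes, and the number of terms tested was derived from the FDR and p ranks. Terms were named by a rule: in each category the 8 of smallest p and the 5 of highest ratio among those with at least 5 selected genes, plus terms found by words. The 10 genes in most terms, and list members, were named. The members and lists were chosen with earlier results of these data known. Lists for liver plasma proteins, liver enzymes, mast cells, and Toll-like receptors were added after the table was seen, as were the word groups and promoter motifs. No set test was run on any list.

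Blastocyst loci with a mean FPKM of at least 1 were compared on log2(FPKM + 1) with limma 3.58.1 in R 4.3.3, two-sided, with Benjamini-Hochberg adjustment over 9439 loci. Where the labels do not say that replicates are separate, p-values measure only the spread between these samples. Tested on simulated data for this comparison with 9439 genes, the fit recovered 65% of 2-fold and 97% of 4-fold changes. It made 9 false calls. Changes were placed only in loci with a mean above about 5 FPKM, so these shares do not cover weakly expressed loci. Recovery was not split further by expression level. Of the table's genes, 74 were tested at a mean of at least 1 FPKM and 23 at 5 FPKM. Alternatives covered the FDR limit, filters, the pseudocount, left-out libraries and a replicate block. Fat methylation terms were read only for overlap. Some genes of the table are not reported here by name.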

Additional observations from a re-analysis of the deposited data

How the results depend on the processing

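At an FDR under 0.01, 326 of the 564 terms were left, and at 0.1 there were 792. Requiring 5 selected genes gave 462 terms, an expected count of at least 1 gave 406, and merging identical gene sets gave 438. Without the liver-list genes, 526 of the 564 terms kept any excess over expectation and 404 kept at least 1.5 times the expected number. No p was recomputed for these 2 counts. The 564 terms had already been selected for an excess, so the counts are no test of it. The 3 blastocyst calls among the table's genes went to 0 without the filter on low FPKM, where 0 of all 16300 loci were called. The count went to 1 each without the intensity trend, with the replicate block and without the liver lists (1.49% beside 4.21% of all loci). Leaving out 1 library in turn gave 1 to 2 calls. There was 1 call without Control replicate 1 (1.41% beside 1.88% of all loci) and 1 without Control replicate 2 (1.32% beside 0.923%). The share called among the table's genes lay above or below that of all loci depending on the setting: with a mean of at least 5 FPKM it was 3 of 23 genes beside 7.71%, with the replicate block 1.35% beside 0.498%, without the intensity trend 1.35% beside 0.434%, and without Fzr1-OE replicate 1 it was 2.67% beside 3.71%. The causes were not tested, apart from the smaller sets that the filters and left-out libraries make by construction. No Control library is numbered 3, so the replicate block leaves Fzr1-OE replicate 3 out of the contrast. The log2 fold changes of Bhmt, Cks2 and Kng1 were then the same as without that library (0.967, 0.562 and 1.10). Fold changes kept their sign in all 12 alternatives for Bhmt (log2 0.96 to 1.02, past the threshold in 11), Cks2 (0.45 to 0.58, in 7) and Kng1 (0.91 to 1.18, in 4). The replicate numbers of the blastocyst libraries were not taken as pairing, because no label says that they pair libraries. Same-numbered Fzr1-OE and Control blastocyst libraries had correlations of -0.04 and 0.03 in their deviations from the group means. With 2 Control libraries those deviations mirror each other, so the correlations cannot settle whether the numbers pair libraries. The fat table holds no values per sample, so no replicate could be left out and no paired analysis was possible for its terms.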
